A study of Mus musculus with 6 samples.

Results

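The genes described here are 59 genes of G2 and mitosis, the last phases of the cell cycle, in N2a cells, a mouse neuroblastoma line. They were found by gene symbol in the mRNA table, where 59 of 59 were present among 11609 genes. They encode the kinases and cyclins that start mitosis, the spindle checkpoint with the ubiquitin machinery that ends it, kinesin motors, kinetochore and chromosomal passenger proteins, spindle proteins, cytokinesis proteins, condensin with other chromosome proteins, and the transcription factor FOXM1. All 6 libraries came from N2a cells plated for 24 h and then kept for 96 h in medium with 2% serum and 10 µM retinoic acid, which induces neurite growth. The 3 control libraries were from cells given the solvent DMSO, and the 3 treated libraries from cells given 5 µM RSL3 for 24 h. RSL3 inhibits the lipid peroxide-reducing enzyme GPX4 and induces ferroptosis, an iron-dependent form of cell death. The labels call the cells neurons. They name no separate cultures for the 3 libraries of either group, so p-values measure only the spread between these libraries, which may be technical.

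As background, a cell that nears division accumulates B-type cyclins, which activate the kinase CDK1 and drive entry into mitosis. Aurora and Polo-like kinases build the spindle, kinetochores tie chromosomes to it, and the checkpoint holds the cell until every chromosome is attached. The anaphase-promoting complex then marks securin and cyclin B for destruction. Transcripts of these genes rise together in G2, driven by the MuvB complex with B-MYB and FOXM1, and are low in cells that have left the cycle. Retinoic acid slows the division of neuroblastoma cells as they put out neurites, but an N2a culture keeps cycling cells.

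Of the 59 genes, 31 fell with RSL3 and 0 rose at an adjusted p under 0.05 in limma, adjusted over the 10590 mRNA genes tested. Among all tested genes 3.92% fell and 2.46% rose, that is 415 and 261 genes, or 329 and 350 after quantile normalization. All 59 genes passed the filter on low values, and the log2 fold change on the log2(FPKM + 1) scale was below 0 in each of them, against 56.4% of all tested genes. It ranged from -0.76 to -0.22 with a median of -0.45, where the median over all tested genes was -0.031. In linear FPKM the RSL3 mean was between 56.9% and 85.2% of the DMSO mean, with a median of 71.7%. Every RSL3 library lay below every DMSO library for 54 of the 59 genes, a pattern seen in 19.6% of all tested genes, while 13.4% of them had every RSL3 library above every DMSO library and 0 of the 59 did. At an unadjusted p under 0.05, 51 of the 59 genes were lower, against 14.3% of all tested genes. The 5 genes whose groups overlapped were Pttg1, Ndc80, Smc2, Ncapg and Foxm1. Summed over the 59 genes, the level was 1270, 1300 and 1270 FPKM in DMSO replicates 1, 2 and 3, and 857, 973 and 929 FPKM in RSL3 replicates 1, 2 and 3. As a share of all mRNA FPKM this was 0.565% to 0.577% with DMSO and 0.428% to 0.455% with RSL3. In bulk RNA, fewer cells in G2 and mitosis and less of each transcript per cell cannot be told apart.

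The number of genes that passed depended on single libraries. It was 5, 5 and 4 without DMSO replicates 1, 2 and 3, and 40, 27 and 6 without RSL3 replicates 1, 2 and 3. The share of all tested genes that fell moved too, to 1.24%, 0.916% and 0.925% without the DMSO replicates and 7.16%, 4.12% and 1.24% without the RSL3 replicates. The log2 fold change stayed below 0 for all 59 genes in each of these 6 fits. Aurka, Bub1b, Kif2c and Cdca8 were the 4 genes that passed in all 6. Of the remaining 27, all but Plk1, Ccnb1, Ube2s and Kif22, which lost 3, lost their call in at least 4 of the fits, always including those without a DMSO replicate or without RSL3 replicate 3. Kif22 and Ccnb1 lost theirs without DMSO replicate 1, 2 or 3. Removing length and GC trends raised the count to 50. Settings of scale, filter and variance gave 26 to 34: 29 genes fell with a pseudocount of 0.1 (3.69% of all tested genes), 30 with 0.5 (3.76%), 30 with no filter (3.66%) and 29 with median-ratio scaling (3.45%). Quantile normalization gave 26 (3.11%) and a fit with no variance trend 27 (3.14%). At a filter of 5 FPKM 34 of the 55 genes kept fell (6.2%).

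**Figure D1:**
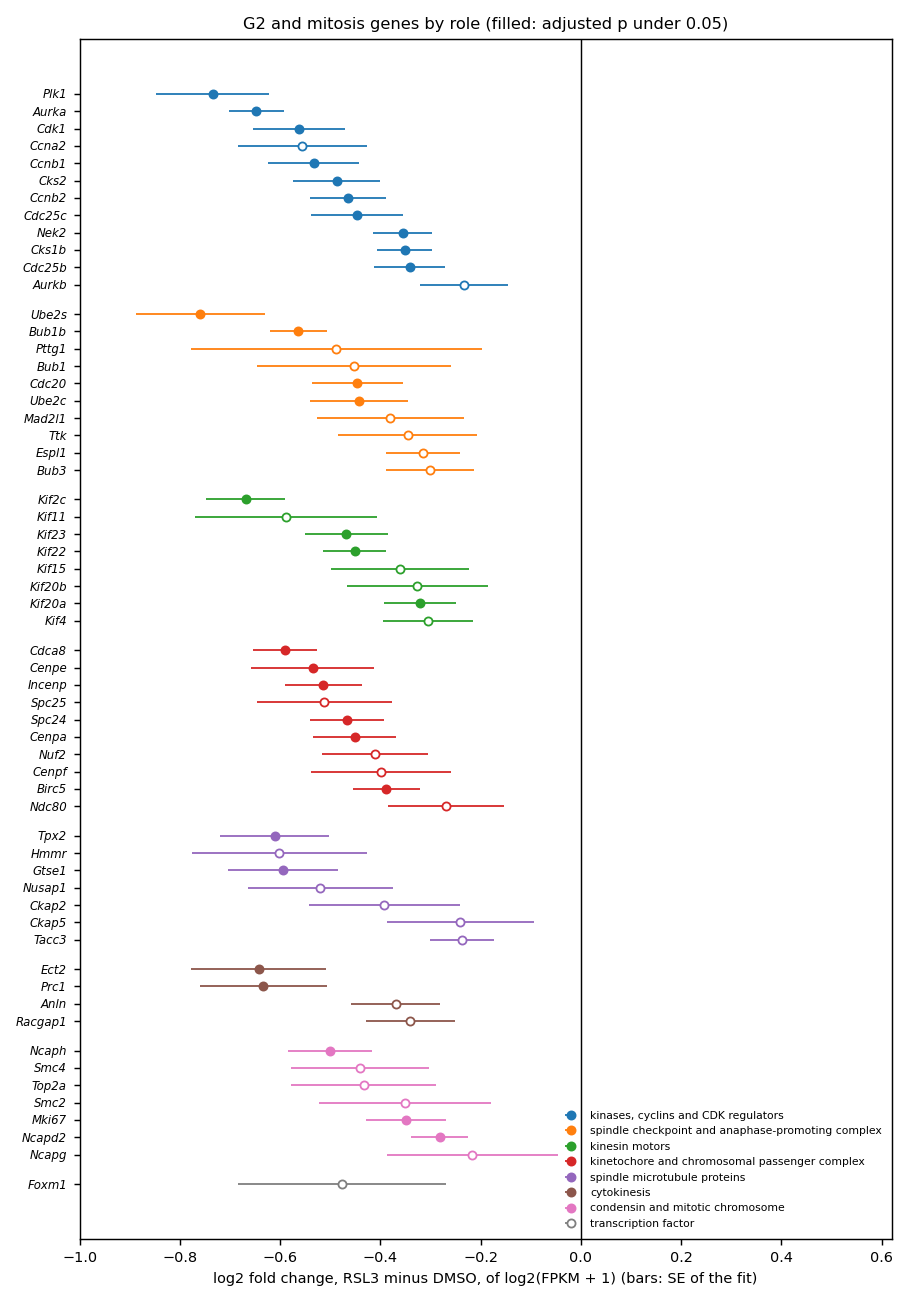
The log2 fold change (RSL3 minus DMSO, on log2(FPKM + 1)) of each of the 59 genes with the standard error of the fit, grouped and coloured by role; filled points are the 31 genes that passed. All points lie to the left of 0, between -0.76 and -0.22.

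Other measures moved between the same libraries. Transcripts typical of liver, a list of 26 genes, summed to 100 to 140 FPKM with DMSO and 36.3 to 51.9 FPKM with RSL3. Of its 18 tested genes 17 fell, against 3.92% of all tested genes. The exception was Rbp4, with means of 10.4 FPKM with DMSO and 12.8 FPKM with RSL3. Some of the 18, such as Fga, Fgb and Fgg, reached 1 FPKM only in the DMSO libraries, so the filter partly set this count. None of the 26 genes was at 0 in all libraries, and Alb stood at 24.0 to 33.9 FPKM with DMSO and 4.15 to 10.5 FPKM with RSL3. A pair of lncRNAs that overlap ribosomal RNA sequence, Gm26917 and Gm42418, summed to 18793 to 22979 FPKM with DMSO and 26639 to 33129 FPKM with RSL3. The part of these measures in the falls of mitotic genes was not tested. Of the marker lists for astrocytes, oligodendrocytes, macrophages, fibroblasts and endothelium, each held 1 of 5 genes in the table, and no list summed above 4.39 FPKM in any library. For the labelled neuron type, Tubb3 stood at 113 to 117 FPKM and the neuroblast factor gene Hand2 at 91.2 to 122 FPKM. The neuronal genes Rbfox3, Nefl and Nefm had no row in the table.

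**Figure D2:**
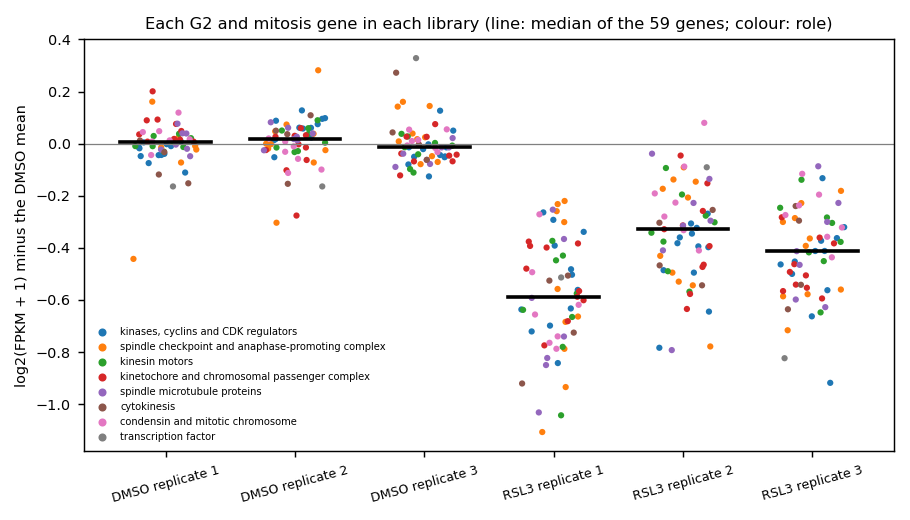
The difference of each gene from its DMSO mean on log2(FPKM + 1), for each of the 6 libraries, with colours for roles and a line at the median of the 59 genes. The medians are -0.59, -0.33 and -0.41 in RSL3 replicates 1, 2 and 3 and within 0.02 of 0 in the DMSO libraries.

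Beside each count by role below, 3.92% of all tested genes fell and 19.6% had every RSL3 library below every DMSO library. Without a DMSO replicate or RSL3 replicate 3, 0.916% to 1.24% of all tested genes fell, and 7.16% without RSL3 replicate 1. Kinases, cyclins and regulators of CDK1 held the largest share of genes that passed: 10 of 12 fell, and the groups did not overlap in any of the 12. Their median log2 fold change, -0.48, was not the lowest, as spindle microtubule proteins had -0.52 and cytokinesis proteins -0.50. Their median DMSO level, 33.5 FPKM, was the highest of the roles. Aurka (ENSMUSG00000027496.15, GRCm38 chromosome 2, 172356190 to 172370535, minus strand) encodes Aurora A, which matures centrosomes and builds the spindle poles. Its level was 36.0, 36.8 and 36.3 FPKM in DMSO replicates 1, 2 and 3 and 23.1, 22.9 and 22.6 FPKM in RSL3 replicates 1, 2 and 3. The spread inside each group was thus far smaller than the gap, and the log2 fold change was -0.65 ± 0.05 (SE, adjusted p = 0.00275). Plk1 (ENSMUSG00000030867.7, chromosome 7, 122159439 to 122169873, plus strand) encodes Polo-like kinase, which acts from mitotic entry to cytokinesis. Plk1 stood at 47.3, 53.4 and 53.0 FPKM with DMSO and at 35.8, 29.3 and 26.6 FPKM with RSL3, a log2 fold change of -0.73 ± 0.11 (SE, adjusted p = 0.0139). Here the RSL3 libraries spread more widely, with replicate 1 the highest, and leaving out DMSO replicate 2 or 3, or RSL3 replicate 3, ended the call.

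Cdk1 and the B-type cyclin genes fell to similar levels. Cdk1, the mitotic kinase gene, went from 32.7, 34.6 and 32.1 FPKM to 19.7, 24.9 and 22.1 FPKM (log2 fold change -0.56, adjusted p = 0.0161). The B-type cyclin genes Ccnb1 and Ccnb2 went from means of 33.8 ± 2.02 and 29.1 ± 1.64 FPKM to 23.1 ± 2.42 and 20.8 ± 1.40 FPKM (SD, n = 3), with adjusted p of 0.0182 and 0.0162 in limma. Cks1b and Cks2 encode small subunits that bind CDKs and had among the highest levels of the 59 genes. Cks1b stood at 59.4, 59.6 and 58.2 FPKM with DMSO and at 46.5, 44.7 and 47.1 FPKM with RSL3 (-0.35, adjusted p = 0.0141). Cks2 stood at 54.5, 60.4 and 54.4 FPKM and at 35.9, 43.7 and 40.6 FPKM (-0.49, adjusted p = 0.0217). Thus the lowest DMSO library of each lay more than 10 FPKM above the highest RSL3 library. The phosphatase genes Cdc25b and Cdc25c, whose products activate CDK1, fell by 0.34 and 0.45 on this log2 scale, and the centrosome kinase gene Nek2 fell by 0.36. The Cdc25b call was lost with median-ratio scaling and quantile normalization (adjusted p = 0.078 and 0.071).

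Cyclin A2 and Aurora B did not pass. Ccna2, the cyclin of S phase and early mitosis, stood at 39.3, 41.3 and 37.0 FPKM with DMSO and at 21.4, 31.1 and 27.4 FPKM with RSL3 (a log2 fold change of -0.56 ± 0.13, adjusted p = 0.0502). RSL3 replicate 1 was much the lowest of the 3, and Ccna2 passed without it and without RSL3 replicate 2. Aurkb, the kinase of the chromosomal passenger complex, stood at 11.7, 11.9 and 13.6 FPKM and at 9.92, 10.1 and 11.2 FPKM, the smallest difference of this role (-0.23 ± 0.09, adjusted p = 0.159). Of these 12 genes, 2, 1 and 1 passed in the fits lacking DMSO replicates 1, 2 and 3, and 2 in the fit lacking RSL3 replicate 3.

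Of 10 genes of the spindle checkpoint and the anaphase-promoting complex, 4 fell, and the groups did not overlap in 9. Bub1b (ENSMUSG00000040084.9, chromosome 2, 118598211 to 118641591, plus strand) encodes BUBR1, the checkpoint protein that restrains CDC20. Its values were 44.8, 45.7 and 43.0 FPKM with DMSO and 29.9, 30.2 and 29.3 FPKM with RSL3 (a log2 fold change of -0.56 ± 0.06 SE, adjusted p = 0.00401). As for Aurka, the 3 RSL3 libraries were nearly equal. Ube2s, the ubiquitin-conjugating enzyme that extends chains on the targets of the complex, had the lowest fold change of the 59 genes, -0.76 ± 0.13 (SE, adjusted p = 0.0179). Its DMSO values were 29.5, 21.1 and 29.1 FPKM, of which replicate 2 stood apart, and its RSL3 values 14.8, 14.9 and 15.6 FPKM. Leaving out DMSO replicate 1 or 3, or RSL3 replicate 3, ended the Ube2s call. Ube2s overlaps Rpl28, a ribosomal protein gene on the other strand, by 521 bases, and no source used here states whether reads were counted by strand.

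The activator gene Cdc20 stood at 26.8, 26.4 and 27.1 FPKM with DMSO and at 22.2, 18.7 and 17.6 FPKM with RSL3 (a log2 fold change of -0.45, adjusted p = 0.0335). Ube2c, whose product starts the ubiquitin chains, had the same order of treated libraries, with 34.2, 34.8 and 32.0 FPKM against 28.5, 23.0 and 22.5 FPKM (-0.44, adjusted p = 0.0450). Neither gene passed when any library but RSL3 replicate 1 was left out, nor with median-ratio scaling or quantile normalization, and Ube2c did not pass with no variance trend. In both genes RSL3 replicate 1 was the highest of the treated libraries.

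The separase gene Espl1, which cleaves cohesin at anaphase, did not pass, with 20.1, 20.4 and 20.8 FPKM against 17.4, 14.9 and 16.4 FPKM (adjusted p = 0.0525). Bub3, a checkpoint gene, stood at 18.1, 18.1 and 21.2 FPKM and at 15.3, 16.4 and 14.3 FPKM (adjusted p = 0.0892). Nor did the checkpoint genes Mad2l1, Ttk and Bub1 pass; with Bub3, their log2 fold changes lay between -0.45 and -0.30. For Bub1 the treated libraries were far apart, at 6.08, 11.3 and 10.1 FPKM, against 12.4, 12.3 and 12.9 FPKM with DMSO. Securin, the inhibitor of separase, is encoded by Pttg1, whose groups overlapped: 8.02, 13.9 and 12.7 FPKM with DMSO and 4.69, 9.87 and 9.81 FPKM with RSL3 (adjusted p = 0.355). DMSO replicate 1 and RSL3 replicate 1 were the low library of each group. Without DMSO replicates 1, 2 or 3 or RSL3 replicate 3, the number of genes of this role that passed was 1, 2, 1 and 1.

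Of 8 kinesin motor genes 4 fell, and no pair of groups overlapped. Kif2c (ENSMUSG00000028678.13, chromosome 4, 117159639 to 117182639, minus strand) encodes MCAK, which takes microtubules apart at centromeres. Kif2c went from 14.1, 13.9 and 14.6 FPKM to 7.85, 9.25 and 8.70 FPKM, which is 60.4% of the DMSO mean (log2 fold change -0.67 ± 0.08 SE, adjusted p = 0.00562). Kif22, a motor on chromosome arms, went from 17.7, 18.6 and 18 FPKM to 13.0, 12.6 and 13.3 FPKM (-0.45, adjusted p = 0.0101). Both had tight groups. Kif23, the motor of the central spindle, went from 6.37, 6.36 and 6.58 FPKM to 3.99, 4.73 and 4.44 FPKM (-0.47, adjusted p = 0.0211). Kif20a, which works in cytokinesis, fell by 0.32 on the log2 scale (adjusted p = 0.0452), a call lost with quantile normalization, with no variance trend and without any single library other than RSL3 replicate 1. Kif20a overlaps Cdc23 on the other strand by 2327 bases.

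Kif11 encodes Eg5, the motor that pushes spindle poles apart. Its fold change, -0.59 ± 0.18 (SE), was second only to Kif2c among the motors, yet it did not pass (adjusted p = 0.103). The treated libraries were far apart, at 5.89, 10.2 and 9.93 FPKM, and the DMSO libraries close, at 13.1, 13.7 and 12.8 FPKM. Without RSL3 replicate 1 it passed (adjusted p = 0.0144). Kif4, which binds condensin on chromosomes, stood at 12.4, 12.6 and 11.2 FPKM and at 8.69, 10.4 and 9.57 FPKM (adjusted p = 0.0896). Kif15 and Kif20b were among the lowest of the 59 genes, with DMSO means of 2.75 and 3.89 FPKM, and stood at -0.36 and -0.33 without passing. Without DMSO replicates 1, 2 or 3 or RSL3 replicate 3, the motor genes that passed numbered 1, 1, 1 and 2.

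Among 10 genes of the kinetochore and the chromosomal passenger complex 6 fell. The passenger complex, which corrects faulty attachments, is built of Aurora B, INCENP, borealin and survivin. Cdca8 (ENSMUSG00000028873.16, chromosome 4, 124918465 to 124939311, minus strand), the borealin gene, went from 18.2, 18.5 and 17.6 FPKM to 11.9, 11.3 and 11.9 FPKM (log2 fold change -0.59 ± 0.06 SE, adjusted p = 0.00494). Incenp, the scaffold, went from 37.3, 37.6 and 35.8 FPKM to 28.2, 24.4 and 24.1 FPKM (-0.51, adjusted p = 0.0126). Birc5, the survivin gene, went from 30.5, 29.4 and 28.5 FPKM to 22.2, 23.5 and 21.1 FPKM (-0.39, adjusted p = 0.0186). So 3 of the 4 complex genes fell, and Aurkb, described above, stood lower without passing. Cdca8 overlaps 9930104L06Rik on the other strand by 2264 bases.

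Of the 4 genes of the NDC80 complex, which grips microtubules, 1 fell. Spc24 stood at 12.3, 12 and 12.1 FPKM with DMSO and at 9.07, 8.46 and 7.95 FPKM with RSL3 (a log2 fold change of -0.47 ± 0.07 SE, adjusted p = 0.0150). Nuf2 stood at 14.4, 13.8 and 12.3 FPKM and at 8.63, 11.1 and 10.1 FPKM (-0.41, adjusted p = 0.0656), and Spc25 at -0.51 (adjusted p = 0.0697). Ndc80 itself had overlapping groups, with 12.7, 13.2 and 12 FPKM against 8.77, 12.2 and 10.2 FPKM (-0.27, adjusted p = 0.209). Whether the 4 subunits differ from one another in response was not tested. The centromeric histone gene Cenpa and the kinetochore motor gene Cenpe fell by 0.45 and 0.54 on this log2 scale (adjusted p = 0.0232 and 0.0480), and Cenpf stood at -0.40 (adjusted p = 0.137). The Cenpe call was lost with a pseudocount of 0.1 or 0.5. In each of the 4 fits without a DMSO library or without RSL3 replicate 3, 1 gene of this role passed, and it was Cdca8.

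Of 7 genes for proteins that organise spindle microtubules 2 fell, although the groups did not overlap in any of the 7. Tpx2, which activates Aurora A on the spindle, went from 33.2, 35.7 and 32.2 FPKM to 18.6, 25.1 and 21.9 FPKM (log2 fold change -0.61 ± 0.11 SE, adjusted p = 0.0217). Gtse1 went from 25.3, 26.7 and 26.6 FPKM to 20.1, 14.7 and 16.6 FPKM (-0.59 ± 0.11 SE, adjusted p = 0.0242). With median-ratio scaling Gtse1 did not pass (adjusted p = 0.0546). These genes had similar fold changes but opposite orders of the treated libraries, replicate 1 being the lowest for Tpx2 and the highest for Gtse1. Hmmr and Nusap1, at -0.60 and -0.52, did not pass (adjusted p = 0.0877 and 0.0795). Ckap5, the microtubule polymerase gene, stood at 17.4, 18.5 and 17.2 FPKM with DMSO and at 11.4, 17.2 and 16.6 FPKM with RSL3, where replicate 1 alone stood apart (-0.24, adjusted p = 0.364). Its groups were kept from overlapping only by a difference smaller than these digits show. Ckap2, a spindle protein gene, stood at 15.7, 15.7 and 14.4 FPKM and at 8.73, 13.8 and 12.2 FPKM (-0.39, adjusted p = 0.167), and Tacc3 stood at -0.24 (adjusted p = 0.0742). Without DMSO replicates 1, 2 or 3 or RSL3 replicate 3, 0 genes of this role passed, whereas 5 did without RSL3 replicate 1.

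Of 4 cytokinesis genes 2 fell. Ect2, which activates RhoA at the cleavage furrow, went from 12.1, 14.7 and 14 FPKM to 6.69, 9.53 and 9 FPKM (log2 fold change -0.64 ± 0.13 SE, adjusted p = 0.0380). Prc1, which bundles the central spindle, went from 9.22, 8.97 and 12.4 FPKM to 5.71, 6.61 and 6.14 FPKM (-0.63 ± 0.13 SE, adjusted p = 0.0317). DMSO replicate 3 was the high library for Prc1, a gene that Rccd1 overlaps on the other strand by 21810 bases. Racgap1, a partner of ECT2, was the most abundant of the role, at 43.9, 46.1 and 44.8 FPKM with DMSO and 30.9, 37.5 and 37.9 FPKM with RSL3 (-0.34, adjusted p = 0.0675). Anln, which links actin and septins in the furrow, stood at 8.01, 8.25 and 7.56 FPKM and at 5.29, 6.24 and 6.28 FPKM (-0.37, adjusted p = 0.0552). Racgap1 and Anln both passed without RSL3 replicate 1. Without DMSO replicates 1, 2 or 3 or RSL3 replicate 3, 0 of the 4 passed.

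Condensin and other mitotic chromosome genes had the median nearest to 0 of the roles with several genes, -0.35, and 3 of 7 fell. Ncaph, the kleisin subunit of condensin I, went from 20.4, 20.9 and 21.9 FPKM to 13.0, 15.6 and 15.3 FPKM (log2 fold change -0.50 ± 0.08 SE, adjusted p = 0.0176). Ncapd2, another subunit, went from 34.2, 34.2 and 33.6 FPKM to 28.0, 26.8 and 28.7 FPKM (-0.28 ± 0.06 SE, adjusted p = 0.0346). For both the groups were well apart, though Ncapd2 lost its call with median-ratio scaling, quantile normalization and no variance trend. The remaining condensin genes, Smc2, Smc4 and Ncapg, did not pass. Smc4 stood at 25.3, 21.4 and 23.1 FPKM with DMSO and at 13.5, 19.7 and 17.9 FPKM with RSL3 (-0.44, adjusted p = 0.105). Ncapg stood at 4.81, 4.62 and 4.80 FPKM with DMSO and at 2.74, 5.07 and 4.30 FPKM with RSL3 (-0.22, adjusted p = 0.489), and Smc2 at 12.7, 11.4 and 12.8 FPKM and 6.82, 11.5 and 10.6 FPKM (-0.35, adjusted p = 0.260). RSL3 replicate 2 lay within the DMSO range for Smc2 and above all DMSO libraries for Ncapg, and replicate 1 was by far the lowest for both.

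Mki67, the proliferation antigen Ki-67 that coats mitotic chromosomes, went from 30, 27.8 and 29.2 FPKM to 20.3, 23.7 and 23.8 FPKM (log2 fold change -0.35 ± 0.08 SE, adjusted p = 0.0489). Its call was near the threshold and was lost with a pseudocount of 0.1, with no filter, with quantile normalization, with no variance trend, and without any single library other than RSL3 replicate 1. Top2a, the topoisomerase that untangles sister chromatids, stood at 57.5, 57.8 and 55.7 FPKM with DMSO and 32.6, 49.8 and 45.4 FPKM with RSL3 (-0.43 ± 0.14 SE, adjusted p = 0.123). Without RSL3 replicate 1 it passed, with an adjusted p of 0.0349. In the fits without a DMSO library or without RSL3 replicate 3, 0 of the 7 genes passed.

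Foxm1, the transcription factor of the set, did not pass. Its values were 16.2, 16.2 and 23.2 FPKM with DMSO and 12.5, 17.1 and 9.89 FPKM with RSL3, so the groups overlapped (log2 fold change -0.48 ± 0.21 SE, adjusted p = 0.214). Foxm1 overlaps Tex52, a protein-coding gene on the same strand, by 691 bases. Of 22 tested genes for E2F, RB, DREAM and MYB-MuvB regulators, which switch cell cycle promoters on or off, 0 passed in limma. At an unadjusted p under 0.05, 1 of the 22 was lower, against 14.3% of all tested genes, and the median was -0.13. The B-MYB gene Mybl2 stood at 15.4, 15.9 and 15.1 FPKM with DMSO and 15, 13.1 and 13.5 FPKM with RSL3 (adjusted p = 0.263). The repressor gene E2f7 stood at 6.93, 6.99 and 6.90 FPKM and at 8.49, 7.82 and 7.74 FPKM, groups that did not overlap, without passing (0.18, adjusted p = 0.181). No gene of this list was called in any direction, though E2f6 and E2f7 were higher at an unadjusted p under 0.05. The 1 lower gene was Tfdp1, with 52.4, 56.3 and 51.1 FPKM against 39.8, 37.4 and 47.6 FPKM (-0.36, adjusted p = 0.0747). The fold change was below 0 in 18 of the 22, against 56.4% of all tested genes. The groups did not overlap for 4 lower and 2 higher genes, against 19.6% and 13.4% of all tested genes.

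With a median of -0.028 over 18 tested G1 cyclins, CDKs and CDK inhibitors, 11 stood below 0. Of the 18, 1 fell and 0 rose, against 3.92% and 2.46% of all tested genes. The 1 gene was Ccnd1, the cyclin D1 gene that drives cells out of G1, which went from 59.3, 61.4 and 58.7 FPKM to 43.5, 41.9 and 39.0 FPKM (log2 fold change -0.52 ± 0.06 SE, adjusted p = 0.00646). Ccnd1 passed whichever of the 6 libraries was left out. The p21 gene Cdkn1a, a target of p53 that stops CDKs, stood at 29.7, 33.0 and 30.7 FPKM and at 41.4, 33.2 and 33.5 FPKM (0.20, adjusted p = 0.261). Only RSL3 replicate 1 was well above the DMSO range there. Of the other CDK inhibitor genes tested, Cdkn1b, Cdkn2c and Cdkn2d stood lower without passing (-0.32, -0.11 and -0.95, adjusted p = 0.235, 0.464 and 0.452). Cdkn2a stood higher without passing (0.19, adjusted p = 0.296). The Cdkn2d libraries spread widely, at 3.59, 14.4 and 17.8 FPKM with DMSO and 3.56, 1.89 and 13 FPKM with RSL3. The growth arrest gene Gadd45a stood at 21.5, 25.4 and 19.8 FPKM and at 27.8, 29.4 and 26.1 FPKM (0.31, adjusted p = 0.109).

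Genes that act with the 59 in mitosis but are not among them stood lower as well. Of 72 such genes 18 fell and 0 rose, against 3.92% and 2.46% of all tested genes, with a median log2 fold change of -0.33. Ckap2l, a spindle protein gene, went from 22.8, 21.2 and 20.9 FPKM to 11.8, 13.6 and 13.6 FPKM (-0.70 ± 0.08 SE, adjusted p = 0.00538), and the centromere gene Cenpn fell by 0.60. Of 52 genes of DNA replication and S phase 10 fell and 0 rose, against the same 3.92% and 2.46% of all tested genes. The median of the 52 was -0.19. The thymidine kinase gene Tk1 fell by 0.51 and the helicase gene Mcm5 by 0.43 on the log2 scale. In both lists the count was 1 when any DMSO library was left out and 2 when RSL3 replicate 3 was, while 31 of the further mitotic genes fell without RSL3 replicate 1. Of the 14 core genes of the anaphase-promoting complex and the 15 genes of cohesin and condensin II, 0 passed in limma in either list. At an unadjusted p under 0.05, 2 and 3 genes were lower, near the share over all tested genes, 14.3%. Every RSL3 library lay below every DMSO library for 4 of the 14 and 7 of the 15, against 19.6% of all tested genes. The fold change was below 0 in 10 of the 14 and 13 of the 15, against 56.4%. The medians of the 2 lists were -0.079 and -0.17. Why these medians stood nearer to 0 than the fold changes of Cdc20, Ube2c and Ube2s was not tested. Among 18 tubulin and interphase microtubule genes 3 fell and 1 rose, against 3.92% and 2.46% of all tested genes, with a median of -0.032. This turned to 0.091 after quantile normalization, where 0 fell and 2 rose, and to 0.0042 with median-ratio scaling, where 0 fell and 0 rose. A lower median than that of the 59 genes was seen for the histone genes with Hist symbols, most of which are expressed in S phase: 57 of 65 fell and 0 rose, with a median of -0.74, and 37 to 60 fell when a single library was left out. This list was chosen by symbol after the data were seen, and reads of its near-identical copies may be split between genes. The differences between these lists and the 59 genes are descriptions and carry no test.

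**Figure D3:**
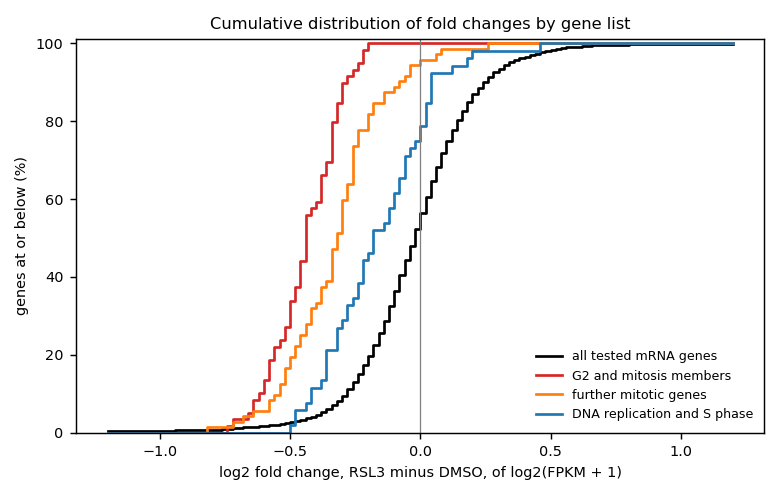
Cumulative share of genes (vertical, %) at or below each log2 fold change (horizontal, RSL3 minus DMSO on log2(FPKM + 1)) for all tested genes, the 59 genes, 72 further mitotic genes and 52 genes of S phase. The curve of the 59 genes reaches 100% left of 0, and the medians lie at -0.031, -0.45, -0.33 and -0.19.

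The 3 treated libraries differed among themselves in which of the 59 genes were lowest. RSL3 replicate 1 had the lowest value of the 3 for 40 genes, replicate 2 for 7 and replicate 3 for 12. Relative to the DMSO mean on the log2(FPKM + 1) scale, the median gene stood at -0.59, -0.33 and -0.41 in replicates 1, 2 and 3. Which library was lowest varied with the GC content of the transcripts, taken as the longest coding transcript in GENCODE M21. Across the 59 genes, which share these libraries and are not independent, the difference from DMSO correlated with GC at r = 0.60 in replicate 1, -0.64 in replicate 2 and -0.47 in replicate 3. Over all 10578 tested genes with a transcript the same values were 0.53, -0.18 and 0.10. Of the 30 genes with GC at or below the median of the 59, 47.3%, replicate 1 was the lowest treated library for 28, among them Kif11, Hmmr, Bub1 and Smc2, and replicate 3 for 2. Of the 29 genes above it, replicate 1 was the lowest for 12, among them Ube2s and Kif2c, replicate 2 for 7 and replicate 3 for 10, which include Plk1, Cdc20 and Ube2c.

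The split shows in the calls. Of the 30 genes at or below the median GC 8 passed, and of the 29 above it 23 passed. The median log2 fold changes of these groups were nearly equal, at -0.44 and -0.45, but the median standard errors were 0.14 and 0.077. With the length and GC trends of each library removed, 23 of the 30 and 27 of the 29 genes passed, 50 of 59 in all, against 8.53% of all genes tested in that fit. The medians of the groups were then -0.33 and -0.45. Among the 19 genes gained were Ccna2 (adjusted p = 0.00955), Kif11 (0.0112), Top2a (0.0105) and Hmmr (0.00805), while the 9 genes that still did not pass were Aurkb, Bub3, Pttg1, Kif15, Ndc80, Spc25, Ckap5, Ncapg and Foxm1.

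**Figure D4:**
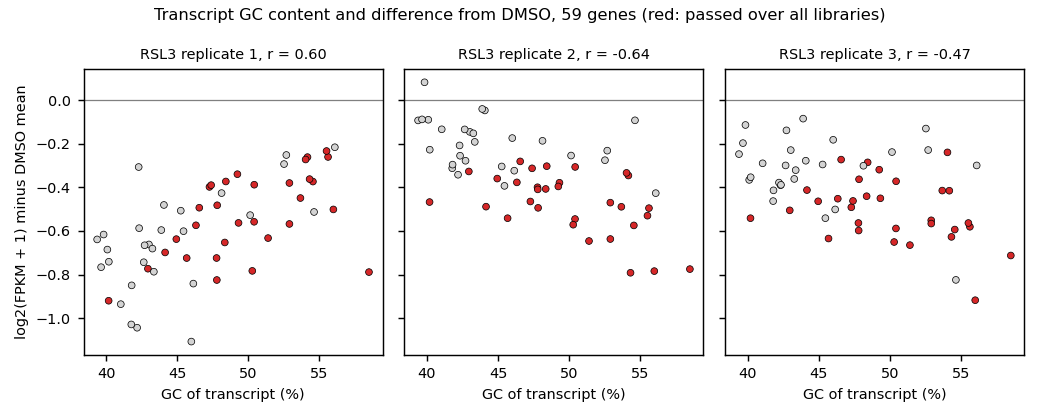
Difference from the DMSO mean on log2(FPKM + 1) (vertical) against the GC content of the transcript in % (horizontal) for the 59 genes in each RSL3 library, with genes that passed in red. The relation runs upward in replicate 1 (r = 0.60) and downward in replicates 2 and 3 (r = -0.64 and -0.47).

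Promoters of these genes share short sequence elements that the choice of members did not use. Textbook G2 and M promoters carry CCAAT boxes, bound by NF-Y, and a CHR element, bound by the MuvB complex, close to the start of transcription. RefSeq promoters on GRCm38.p6, 250 bases before to 50 after the start, were found for 50 of the 59 genes. The letters CCAAT were searched on both strands, and for CHR the letters TTTGAA and, as a variant, the letters TTCGAA, likewise on both strands. A CHR element was present for 38 of 50 genes (76%) and in 19.2% of all 32851 promoters of the same length, or for 21.7% of the 27025 genes they belong to. CCAAT was present for 37 of 50 genes (74%) and in 37.4% of all promoters (41.1% of genes), and both together for 32 genes (64%) against 7.52% of promoters (8.61% of genes). Within 60 bases before to 50 after the start, a window chosen after the positions were seen, 33 of 50 genes (66%) held a CHR element, as did 5.90% of all promoters (6.79% of genes). E2F-type letters (TTGGCGC, a second form TTCCCGC and a further form TTCGCGC, on either strand) were present for 9 genes (18%) and in 8.07% of all promoters (9.2% of genes). For a gene with several start sites in the table, a match at any counts. These matches are letters in a window, not measured binding.

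The stretches below run from 120 bases before to 30 after the start, and belong to the 5 genes with the smallest p among those that fell and hold both elements in that window. Each was required to hold both elements there, so their joint presence follows from the choice. The stretches show their order, with a CCAAT box upstream of a CHR element next to the start. Aurka, Bub1b and Plk1 were left out because their CHR letters nearest the start begin beyond that window. These lie at positions 33, 41 and 31, counted from +1 at the start site. Kif2c was left out because it holds no CCAAT. Capitals mark CCAAT, read as ATTGG from the other strand, and the CHR letters TTTGAA, read as TTCAAA from the other strand. In Cdca8 the last ATTGG has its first base in common with the CHR letters. All 5 lie on the minus strand and are written 5′ to 3′ along the gene, for Cdca8 at chr4:124936888-124937037, Kif22 at chr7:127042391-127042540, Cks1b at chr3:89418262-89418411, Cdk1 at chr10:69352883-69353032 and Ccnb2 at chr9:70421525-70421674.
Cdca8: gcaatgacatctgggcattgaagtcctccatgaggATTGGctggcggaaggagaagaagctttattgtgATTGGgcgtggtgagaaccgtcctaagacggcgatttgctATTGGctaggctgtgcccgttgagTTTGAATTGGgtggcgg
Kif22: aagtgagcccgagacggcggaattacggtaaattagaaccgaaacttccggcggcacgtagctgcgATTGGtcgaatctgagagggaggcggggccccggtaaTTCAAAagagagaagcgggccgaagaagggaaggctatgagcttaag
Cks1b: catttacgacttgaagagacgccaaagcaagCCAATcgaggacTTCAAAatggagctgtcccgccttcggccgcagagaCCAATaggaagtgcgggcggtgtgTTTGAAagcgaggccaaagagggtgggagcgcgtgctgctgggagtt
Cdk1: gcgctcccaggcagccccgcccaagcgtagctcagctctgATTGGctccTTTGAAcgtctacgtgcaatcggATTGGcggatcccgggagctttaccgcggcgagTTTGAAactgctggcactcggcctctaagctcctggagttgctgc
Ccnb2: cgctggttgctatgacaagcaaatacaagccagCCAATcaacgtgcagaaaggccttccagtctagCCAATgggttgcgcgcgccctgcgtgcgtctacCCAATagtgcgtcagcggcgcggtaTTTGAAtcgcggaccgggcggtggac
Counted from +1 at the start site, the CHR element nearest the start begins at position 14 in Cdca8, -17 in Kif22, -17 in Cks1b, -15 in Cdk1 and 5 in Ccnb2. Ccnb2 carries 3 CCAAT boxes upstream of it and Kif22 carries 1.

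Genes with and without the elements were found among those that passed and those that did not. A CHR element was found for 19 of the 26 genes that fell and have a promoter entry, and for 19 of the 24 that did not pass. Aurka, Plk1 and Bub1b hold both elements, whereas Birc5 and Ncaph fell with neither in the window. The remaining genes with neither were Mad2l1, Nuf2, Nusap1, Pttg1 and Tacc3. Among tested genes outside the 59, 538 held both elements and 5.95% of them fell, against 2.76% of the 7687 that did not hold both. Their medians were -0.077 and -0.025, and no test was made of this difference. Only the 59 genes were left out here, so the 538 may hold other genes of mitosis and S phase.

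**Figure D5:**
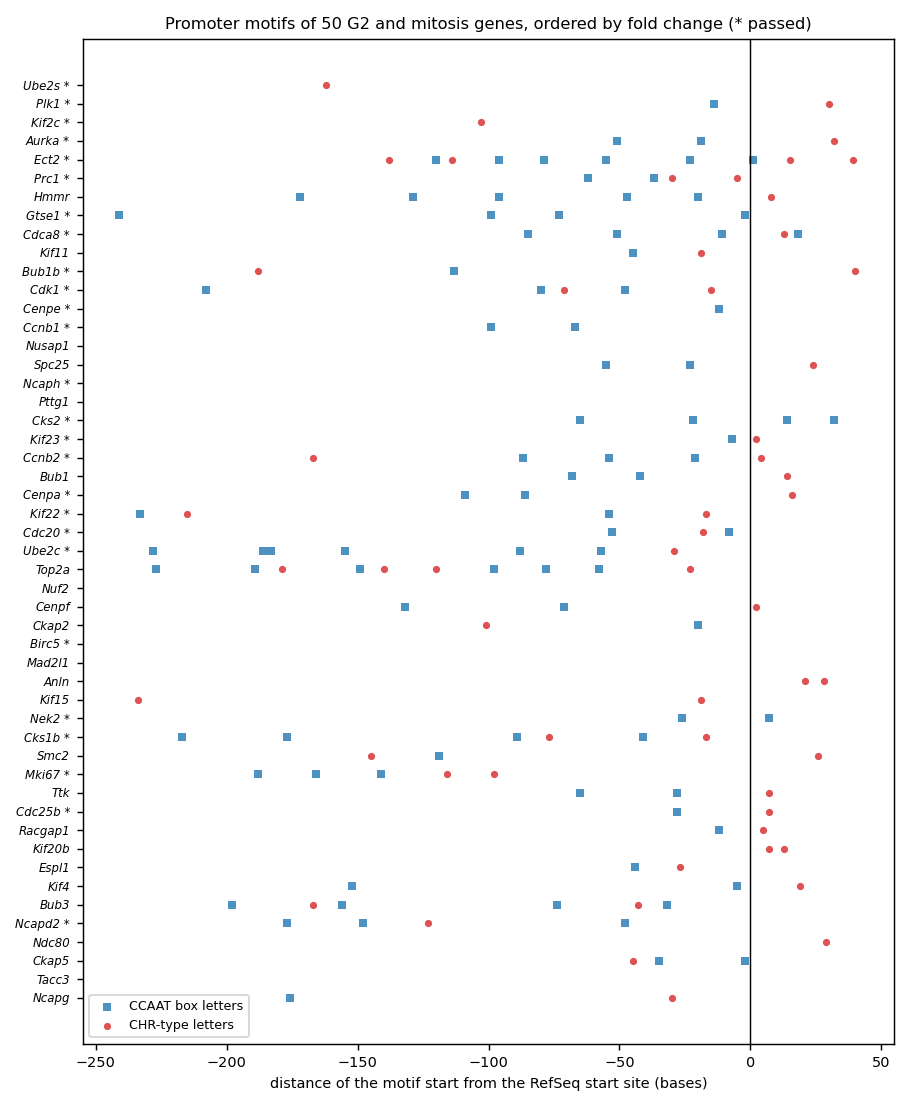
Position of CCAAT letters (blue squares) and CHR letters (red circles) relative to the RefSeq start site, in bases, for the 50 genes with a promoter entry, ordered from the most negative fold change at the top, with an asterisk where the gene passed; for 4 genes with 2 start sites both are drawn. Red circles gather around the start site, where 33 of 50 genes have one.

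Circular RNAs from these genes were few. Of 1414 circRNAs named by coordinates, 18 lay within 12 of the 59 genes on the same strand, and 1754 circRNAs named by a circBase identifier were not matched to genes here. Reads recovered from the deposited values came to 119 for these 18 circRNAs over the 6 libraries. By library they numbered 10, 20 and 8 in DMSO replicates 1, 2 and 3 and 29, 32 and 20 in RSL3 replicates 1, 2 and 3. Per 10000 circRNA reads of the library this was 10.6, 27.8 and 11.1 with DMSO and 55.5, 43.5 and 29.5 with RSL3. Each RSL3 library was above each DMSO library in this share, but 9 of the 18 were seen in a single library. The one seen in 5 libraries was from Kif15 (chromosome 9, 122959117 to 122965986, plus strand), with 4, 0 and 3 reads with DMSO and 2, 4 and 3 with RSL3. The most read was from Racgap1 (chromosome 15, 99628634 to 99637774, minus strand), with 0, 6 and 1 reads with DMSO and 6, 0 and 5 with RSL3. At these counts a difference of a single circRNA was not detectable.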

How the data were processed

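RNA from 6 libraries was analysed, 3 of DMSO and 3 of RSL3, in 18 tables. FPKM is the unit of the mRNA and lncRNA tables the authors deposited; per the submitters' processing notes cutadapt, HISAT2, StringTie 1.3.3 and build GRCm38 were used. FPKM keeps no depth. No source used here names the annotation release, strand setting or filters. Columns headed CPM in the deposited circRNA tables have sums other than that unit requires and were treated as a signal: 100% of values above 0 lay within 0.01 of a whole multiple of the library's smallest value, which was taken as 1 read.

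On log2(FPKM + 1), the 3 RSL3 libraries were set against the 3 DMSO libraries in limma 3.58.1 under R 4.3.3 (trended variances, two-sided) for genes reaching 1 FPKM in 3 or more libraries, with Benjamini-Hochberg adjustment over all 10590 and a threshold of 0.05. The script was tested on simulated data. Of 11609 identifiers, 11595 were found in GENCODE M21. Members and lists were chosen with earlier results of these data known, so lists carry no test. By rule, the text gives for each role the 3 genes with the smallest p among those that passed and the 1 or 2 most abundant of those that did not, and up to 4 genes of each further list by p; others named were chosen after their values were seen. Alternatives changed the pseudocount, filter, scaling, variance model, replicate block, trends and libraries.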

Additional observations from a re-analysis of the deposited data

How the results depend on the processing

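Across 15 alternatives the fold change stayed below 0 for every one of the 59 genes tested (55 at a filter of 5 FPKM) and 0 rose. The count that fell, 31, was 50 with length and GC trends removed and 14 with the replicate block (1.56% of all tested genes), and between 4 and 40 without single libraries; it lay between 26 and 34 in the other alternatives. The median, -0.45, lay between -0.48 (pseudocount 0.1) and -0.37 (trends removed), and between -0.495 and -0.38 without single libraries. The replicate numbers were not treated as pairs: deviations of same-numbered libraries correlated at -0.145, 0.049 and -0.062, and 1 of the 3 DMSO libraries correlated best with its own number. Over all genes, 415 fell and 261 rose in the main setting, and 329 and 350 after quantile normalization; 902 and 728 did with trends removed, 165 and 88 with the replicate block, and 97 to 758 and 47 to 541 without single libraries. Of the S phase genes, 10 fell, and 5 did with quantile normalization or no variance trend, 16 with trends removed and 2 with the block; of the further mitotic genes, 18 fell, 33 with trends removed and 3 with the block. Of the single-gene results under alternatives, 147 lost the call, 38 gained it and 696 kept their side. edgeR 4.0.16 on circRNA reads recovered from the signal, an alternative chosen after seeing the data, called 1 of 1662, mmu_circ_0001730, with 108 at an unadjusted p under 0.05. Unknown depth of the FPKM values limits what can be said of the genes under 5 FPKM.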
